A study of Mus musculus with 48 samples.

Results

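Cells sorted as high in Ly6C and high in MHC class II (Ly6Chi MHCIIhi) from mouse colon tumours were set against both of the sorted populations that share 1 of these features with them. Those neighbours are Ly6Chi MHCIIlo and Ly6Clo MHCIIhi, and the question was which transcripts peak or dip in the double-high cells instead of moving steadily from one neighbour to the other. Members were defined by their labels, in a rule set with earlier results of these data known. They are 7 of the 40 samples of the series, once libraries of the same population, genotype and replicate had been summed from 48 libraries. They were compared with 8 Ly6Chi MHCIIlo and 16 Ly6Clo MHCIIhi samples. An eighth Ly6Chi MHCIIhi sample, ctrl replicate 2, held 8409 counts and was left out, as the rule asks. The remaining 8 samples, Ly6Clo MHCIIlo, are in no contrast and are only given as levels.

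Bulk 3′ libraries were made from the polyadenylated RNA of cells sorted from tumours at day 85 of treatment with AOM and DSS, a carcinogen and a colitis-inducing polymer that together cause colon tumours. Within each population some samples are labelled ko for the chemokine gene Ccl17 and some ctrl, and all were AOM DSS treated. The Ly6Chi MHCIIhi samples in the contrast are 4 ko (replicates 1 to 4) and 3 ctrl (replicates 1, 3 and 4). The Ly6Chi MHCIIlo samples are 4 ko and 4 ctrl, and the Ly6Clo MHCIIhi samples are 8 ko and 8 ctrl. The design text speaks of knockout mice that shared cages with controls or were kept apart, but housing is not labelled per sample, and neither are age, strain, sex, the number of animals behind a sample and the deleted part of the gene. The labels do not state that each replicate is another animal, and p-values therefore reflect only how these samples scatter, which may be technical.

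In the gut, monocytes enter from blood with abundant Ly6C and little surface MHC class II. As they settle they gain MHC class II first and lose Ly6C later, and end as macrophages with lysosomal, scavenging and antigen-presenting programmes, so double-high cells are regarded as a stage of this maturation. In tumours the same course is known to yield cells that make growth factors and adapt to low oxygen.

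Ly6Chi MHCIIhi samples held 34362 to 290631 counts (median 243339), against 222560 to 388815 in Ly6Chi MHCIIlo and 39872 to 891461 in Ly6Clo MHCIIhi. One member stood apart. In ctrl replicate 1 (78264 counts), haemoglobin and other red cell markers took 23.2% of all counts and neutrophil markers 6.33%, whereas the other 6 members had 0.00828% to 0.156% and 0.0626% to 0.221%. Its scaling factor was 0.711, and results are given over all 7 members and over the 6 without it. A neighbour stood apart too. Ly6Clo MHCIIhi ctrl replicate 3 had 956 CPM (normalised counts, scaled to the same library size) of Slc2a1, the main glucose transporter, and 3853 CPM of Ptgs2, which makes prostaglandins, against at most 266 and 788 CPM in the other 7 ctrl samples of that population. In these bulk samples, fewer cells of a type and less RNA per cell cannot be told apart.

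**Figure D1:**
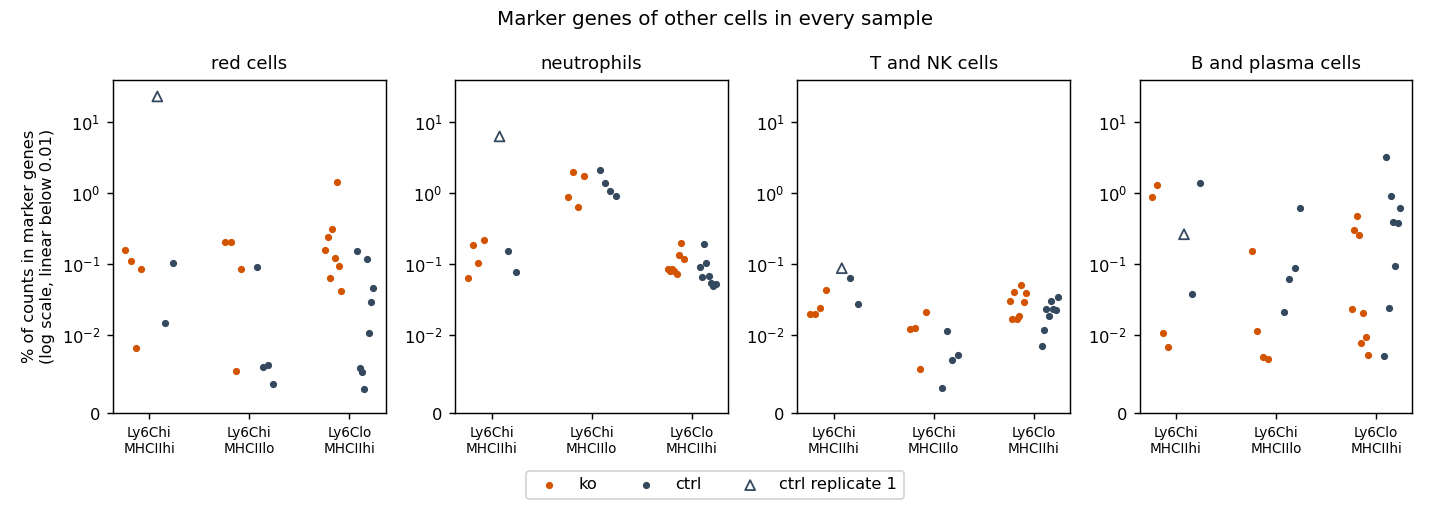
Share of each sample's counts (percent, log scale that is linear below 0.01) in marker genes of red cells, neutrophils, T and NK cells, and B and plasma cells, with 1 point per sample and ko left of ctrl within each population. The open triangle is Ly6Chi MHCIIhi ctrl replicate 1, at 23.2% for red cell and 6.33% for neutrophil markers.

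The gate was checked on transcripts. Ly6c2, which encodes the Ly6C protein (chromosome 15, 75108158 to 75111970, minus strand, GRCm38), had 316, 413 and 764 CPM as lowest, median and highest of the 6 Ly6Chi MHCIIhi samples and 862 CPM in ctrl replicate 1. It had 912, 1090 and 1658 CPM in Ly6Chi MHCIIlo and 5.89, 20 and 84.98 CPM in Ly6Clo MHCIIhi. The 3 populations did not overlap over these 6 members. On the log2 scale the double-high cells lay nearer to Ly6Chi MHCIIlo, with log2 folds of -1.39 over it and 4.20 over Ly6Clo MHCIIhi. Cd74, the invariant chain that escorts MHC class II, had 6764, 10541 and 14087 CPM in the 6 and 3916 CPM in ctrl replicate 1, against 1123, 1820 and 2321 CPM in Ly6Chi MHCIIlo and 11766, 13475 and 14939 CPM in Ly6Clo MHCIIhi. All 7 members exceeded every Ly6Chi MHCIIlo sample. Transcripts of most MHC class II chains are not analysed here. Itgam, the integrin CD11b, and Ptprc, the leukocyte antigen CD45, had 675 and 297 CPM as medians of the 6, so the labelled immune and myeloid identity is matched by these transcripts. Ccl17 itself was scarce. It had 0, 6.97, 0 and 11.3 CPM in ko replicates 1 to 4, against 35.9, 0 and 4.17 CPM in ctrl replicates 1, 3 and 4, and these genotypes overlap. The 35.9 CPM are 2 counts and the 11.3 CPM are 3 counts, and a count of 0 allows 10.5 to 76.9 CPM in these samples (3 counts, counting error only), so a loss of Ccl17 was not detectable here.

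For each gene the level in Ly6Chi MHCIIhi was compared with the midpoint of the neighbours' mean log2 levels, with genotype in the model, and this difference is called the contrast. The test was edgeR's quasi-likelihood test, and genes with an adjusted p under 0.05 over all genes tested count as called. Over all 7 members 19 of 4902 genes were called (0.388%), 11 higher (0.224%) and 8 lower (0.163%). Without ctrl replicate 1, 82 of 5126 genes were called (1.6%), 64 higher (1.25%) and 18 lower (0.351%). Of the 19 genes, 18 were called again without that sample, and the exception was Hbb-bt, a beta globin. It had 53302 CPM in ctrl replicate 1 and 0 to 196 CPM in the other 6. Of the 82 genes, 81 were also tested over 7 members, and apart from the 18 they missed the threshold there. Cd276 was too low to be tested over 7. Leaving out the neighbour Ly6Clo MHCIIhi ctrl replicate 3 raised the calls to 25 higher and 20 lower over 7 members, and to 119 and 36 over 6. With ko replicate 1 left out of the 7, 3 higher and 1 lower genes passed.

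A called gene need not peak, because a gene near its higher neighbour also exceeds the midpoint. A stricter reading asks that a gene differ from both neighbours in the same direction, with the larger of both p-values adjusted over all genes. No gene passed it by edgeR in either set of members, and the smallest adjusted p were 0.723 over 7 and 0.138 over 6. At an unadjusted p under 0.05 in both differences, 50 genes lay above and 60 below both neighbours over 7 members, and 63 and 74 over 6. DESeq2 passed 0 genes over 7 members and 1, Bhlhe40, over 6. When each difference was adjusted by itself and both had to pass, a rule added after the data were seen, 8 genes lay above (0.163%) and 11 below (0.224%) over 7 members, 4 of the 8 being globin genes (Hbb-bt, Hbb-bs, Hba-a1 and Hba-a2). Mrpl54, a mitochondrial ribosomal protein gene and also among the 8, had 233, 335 and 384 CPM in the 6 members and 377 in ctrl replicate 1, against 146, 222 and 294 CPM in Ly6Chi MHCIIlo and 149, 237 and 283 CPM in Ly6Clo MHCIIhi. Of the 6, 5 exceeded every sample of each neighbour, and the contrast was 0.46 over 7 (adjusted p = 0.0568) and 0.41 over 6 (adjusted p = 0.0586). Over 6 members 12 lay above (0.234%) and 10 below (0.195%).

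Position was read for all genes as well. Over 7 members 50.9% of all tested genes lay between the neighbours, 23.8% above both and 25.3% below both. Without ctrl replicate 1, of the 64 genes called higher, 45 lay above both neighbours and 19 between them, and of the 18 called lower 16 lay below both. Of all genes tested over 6 members, 22.3% lay above both and 26.7% below both. The contrast chose the called genes in the same samples, which favours places beyond both neighbours. Their positions are a description and no evidence of a peak or dip. Against single neighbours over 7 members, 122 genes were higher (2.49%) and 135 lower (2.75%) than in Ly6Chi MHCIIlo, and 428 higher (8.73%) and 438 lower (8.94%) than in Ly6Clo MHCIIhi. Over 6 members these shares were 2.79%, 3%, 9.62% and 9.19%. Of the 64, 43 passed against Ly6Clo MHCIIhi alone, 14 against Ly6Chi MHCIIlo alone and 7 against each. Of the 18, 10 passed against Ly6Clo MHCIIhi alone, 4 against Ly6Chi MHCIIlo alone and 4 against each.

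**Figure D2:**
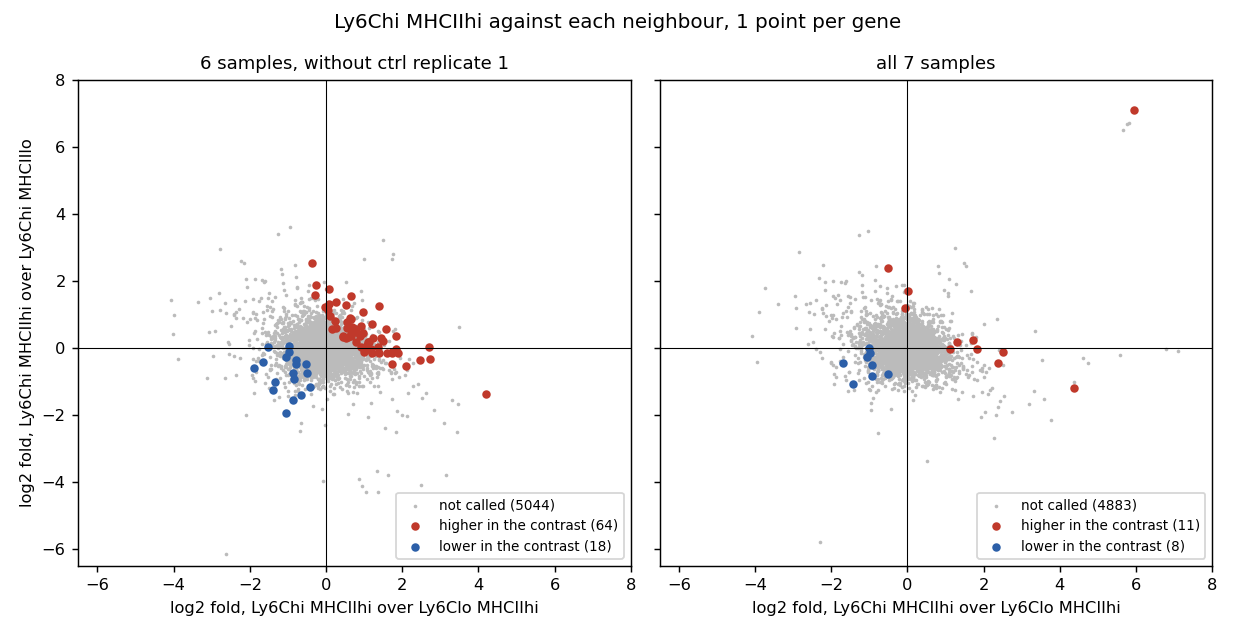
Log2 fold of Ly6Chi MHCIIhi over Ly6Clo MHCIIhi (horizontal) and over Ly6Chi MHCIIlo (vertical), 1 point per tested gene, without ctrl replicate 1 on the left and with all 7 members on the right. Genes called higher in the contrast (red, 64 and 11) spread along both positive axes, and no gene passes the stricter reading in either panel.

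The 7 genes that were called higher and exceeded each neighbour by itself, over 6 members, were Bhlhe40, Areg, Tpi1, Vegfa, Clec5a, Myl12a and Tmem185b. Bhlhe40, a transcriptional repressor that responds to hypoxia and inflammation (chromosome 6, 108660629 to 108666925, plus strand, GRCm38), had 461, 589 and 645 CPM in the 6 members, against 273, 388 and 456 CPM in Ly6Chi MHCIIlo and 226, 364 and 474 CPM in Ly6Clo MHCIIhi. All 6 exceeded every Ly6Chi MHCIIlo sample and 5 of 6 exceeded every Ly6Clo MHCIIhi sample. Its log2 fold was 0.63 over Ly6Chi MHCIIlo (SE 0.13, adjusted p = 0.00186) and 0.68 over Ly6Clo MHCIIhi (SE 0.12, adjusted p = 2.5e-05). The excluded ctrl replicate 1 had 198 CPM, below every neighbour sample, and with it the contrast of 0.51 missed the threshold (adjusted p = 0.0643).

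Areg encodes amphiregulin, a growth factor for epithelium. It had 187, 368 and 553 CPM in the 6 members and 179.6 CPM in ctrl replicate 1, against 95.1, 148 and 312 CPM in Ly6Chi MHCIIlo and 104, 157 and 358 CPM in Ly6Clo MHCIIhi. All 6 exceeded both neighbours' medians, 5 exceeded every Ly6Chi MHCIIlo sample and 4 every Ly6Clo MHCIIhi sample, so the groups overlap at their edges. The contrast was 1.03 over 6 members (SE 0.26, adjusted p = 0.04) and 0.93 over 7 (adjusted p = 0.0724). Clec5a, a receptor that activates myeloid cells, had 220.3 CPM as the median of the 6, against 106 in Ly6Chi MHCIIlo and 134 in Ly6Clo MHCIIhi, with a contrast of 0.77 (SE 0.20, adjusted p = 0.04; 0.65 and adjusted p = 0.162 over 7). Vegfa and Tpi1 follow with the hypoxia genes.

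**Figure D3:**
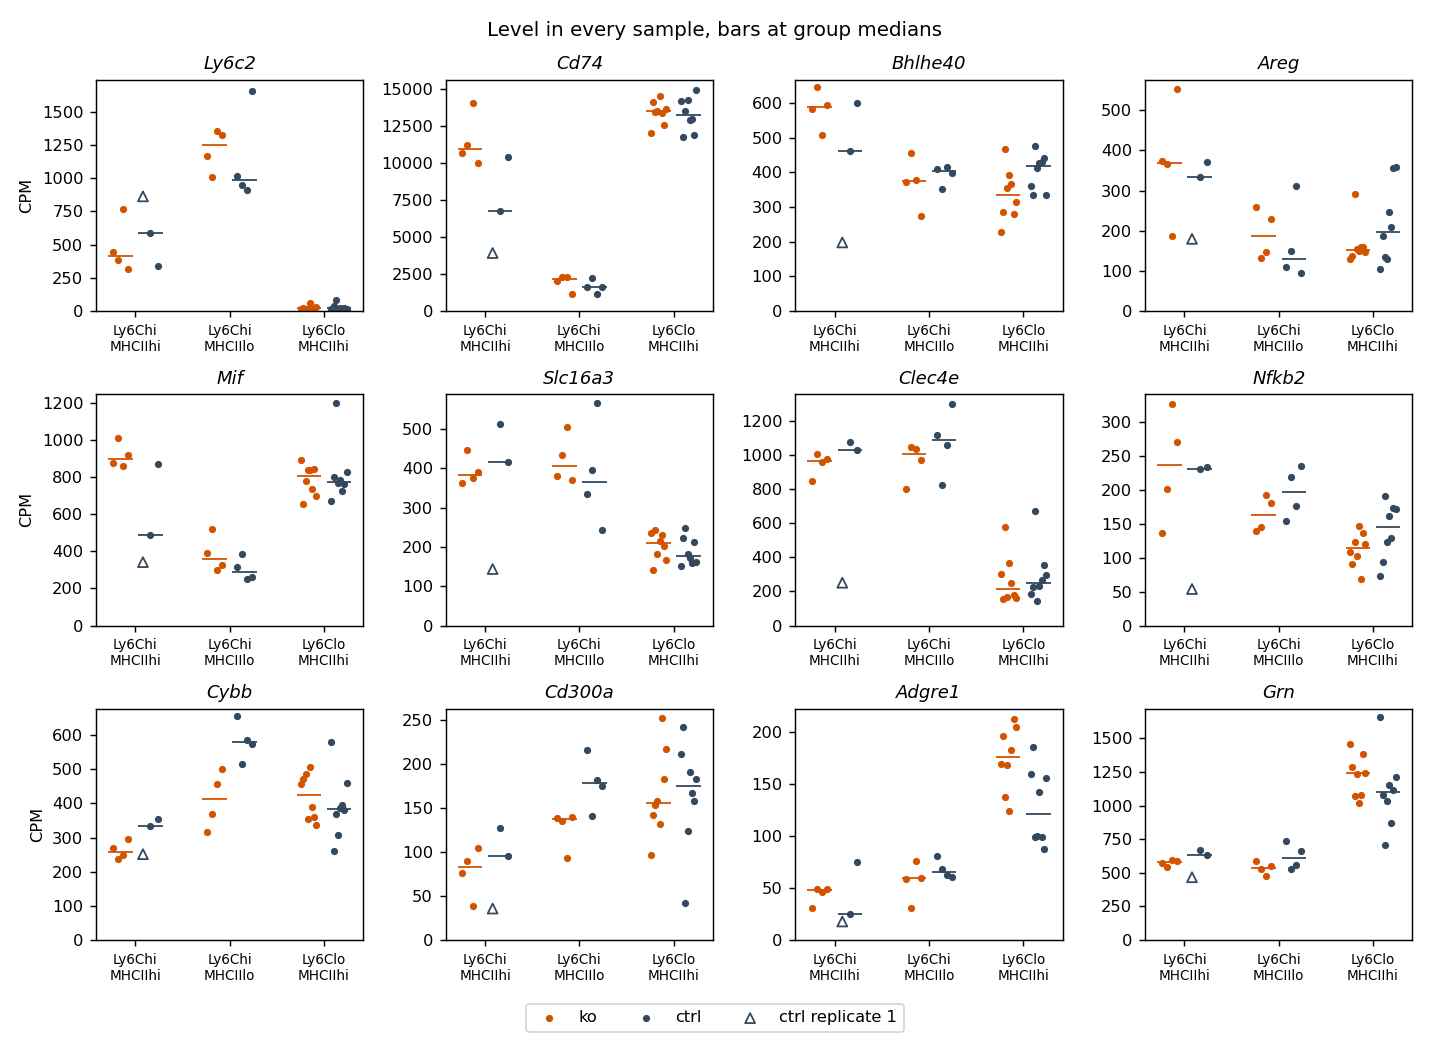
Level of 12 genes in every sample in CPM, each axis from 0, with ko left of ctrl, bars at group medians (the ctrl bar of Ly6Chi MHCIIhi includes replicate 1) and Ly6Chi MHCIIhi ctrl replicate 1 as an open triangle. Bhlhe40 and Areg lie highest in Ly6Chi MHCIIhi and Cybb and Cd300a lowest, Clec4e and Slc16a3 lie level with Ly6Chi MHCIIlo, and Mif lies level with Ly6Clo MHCIIhi.

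Genes of glycolysis and the response to low oxygen lay on the high side together. Glycolytic enzymes turn glucose into pyruvate, and the factor HIF-1 raises many of them when oxygen is short. All 23 tested members of this list had a positive contrast in both sets of members, with a median of 0.40 over 6 members and 0.27 over 7, against -0.01 and 0.00 for all genes tested. Over 6 members 19 of the 23 lay above both neighbours (all genes 22.3%) and 6 were called higher (all genes 1.25%). Over 7 members 14 lay above both (all genes 23.8%) and 1 was called (all genes 0.224%). The 6 were Mif, Tpi1, Aldoa, Slc16a3, Vegfa and Hif1a, and none was called lower. The list had been proposed with these data in view and its direction is no independent evidence.

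Mif, an inflammatory cytokine that HIF-1 raises (chromosome 10, 75859353 to 75860240, minus strand, GRCm38), was the member called in both. It had 487, 872 and 1011 CPM in the 6 and 341 CPM in ctrl replicate 1, against 249, 320.2 and 522 CPM in Ly6Chi MHCIIlo and 655, 779 and 1197 CPM in Ly6Clo MHCIIhi. Of the 6, 5 exceeded every Ly6Chi MHCIIlo sample and 5 lay within the range of Ly6Clo MHCIIhi. The contrast was 0.68 over 6 members (SE 0.12, adjusted p = 0.000682) and 0.56 over 7 (SE 0.13, adjusted p = 0.0361). Tpi1, a glycolytic isomerase, had 409.9, 538 and 576 CPM in the 6, against 246, 346 and 500.1 CPM in Ly6Chi MHCIIlo and 236, 339 and 538 CPM in Ly6Clo MHCIIhi. All 6 exceeded the medians of both neighbours, and the contrast was 0.57 (SE 0.12, adjusted p = 0.00735; 0.46 and adjusted p = 0.0824 over 7). Vegfa, which makes the main growth factor of blood vessels, had 461, 758 and 892 CPM, against 198, 413 and 649 CPM in Ly6Chi MHCIIlo and 321, 440.3 and 716 CPM in Ly6Clo MHCIIhi, with all 6 again above both medians (contrast 0.67, adjusted p = 0.04; 0.54 and adjusted p = 0.154 over 7).

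The other 3, like Mif, passed against a single neighbour over 6 members. Slc16a3, the lactate exporter MCT4 (chromosome 11, 120948480 to 120960868, plus strand, GRCm38), had a median of 404 CPM in the 6 members, close to 388 CPM in Ly6Chi MHCIIlo, while all 6 exceeded every Ly6Clo MHCIIhi sample (median 193 CPM; log2 fold 1.09, adjusted p = 3.01e-08). Hif1a, the oxygen-regulated subunit of HIF-1, had 478 CPM, against 416 in Ly6Chi MHCIIlo and 278 in Ly6Clo MHCIIhi, and differed from the second alone (log2 fold 0.78, adjusted p = 2.78e-05). Aldoa, a glycolytic aldolase, had 1680 CPM, against 1118 in Ly6Chi MHCIIlo and 1373 in Ly6Clo MHCIIhi, and differed from the first alone (log2 fold 0.56, adjusted p = 0.00106). Over 7 members the contrasts of Slc16a3, Hif1a and Aldoa were 0.44, 0.33 and 0.21, with adjusted p of 0.143, 0.382 and 0.528. Ldha, lactate dehydrogenase A, and Pfkl, a phosphofructokinase, missed the threshold narrowly over 6 members (contrasts 0.38 and 0.68, adjusted p = 0.0522 and 0.0516), and Slc2a1, for glucose uptake, had a contrast of 0.40 (adjusted p = 0.564). Ly6Clo MHCIIhi ctrl replicate 3, high in Slc2a1, was also the highest ctrl sample of its population in Mif, Tpi1 and Ldha, at 1197, 538 and 1381 CPM.

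The promoters of this list were read for the core of the hypoxia response element, the letters ACGTG or GCGTG on either strand, where HIF-1 can bind. Promoter windows run from 250 bases before to 50 after the transcription start (RefSeq, GRCm38.p6), and 43.8% of all 32851 windows hold a match. Of the 23 tested list genes 21 are in the table, with 28 windows, and 22 of those windows (78.6%), from 19 genes, hold one. The share over all windows includes genes not tested here, so the difference in shares is no result about the contrast. Sequences of 4 called genes are given 5′ to 3′ on the gene's strand with the matches in capitals, for Mif (chr10:75860228-75860527, minus strand), Slc16a3 (chr11:120948817-120949116, plus strand), Hif1a (chr12:73907617-73907916, plus strand) and Tpi1 (chr6:124814109-124814408, minus strand).
Mif: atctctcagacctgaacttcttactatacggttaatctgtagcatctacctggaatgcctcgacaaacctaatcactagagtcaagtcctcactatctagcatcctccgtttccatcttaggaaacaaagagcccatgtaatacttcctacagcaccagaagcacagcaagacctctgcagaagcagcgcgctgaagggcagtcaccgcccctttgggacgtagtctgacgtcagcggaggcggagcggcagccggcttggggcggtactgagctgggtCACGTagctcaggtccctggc
Slc16a3: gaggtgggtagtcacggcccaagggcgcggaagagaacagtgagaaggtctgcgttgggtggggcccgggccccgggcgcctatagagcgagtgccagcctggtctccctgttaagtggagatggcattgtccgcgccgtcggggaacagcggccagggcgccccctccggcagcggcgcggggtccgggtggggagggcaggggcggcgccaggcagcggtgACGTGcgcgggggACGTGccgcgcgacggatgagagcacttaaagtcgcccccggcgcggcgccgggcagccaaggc
Hif1a: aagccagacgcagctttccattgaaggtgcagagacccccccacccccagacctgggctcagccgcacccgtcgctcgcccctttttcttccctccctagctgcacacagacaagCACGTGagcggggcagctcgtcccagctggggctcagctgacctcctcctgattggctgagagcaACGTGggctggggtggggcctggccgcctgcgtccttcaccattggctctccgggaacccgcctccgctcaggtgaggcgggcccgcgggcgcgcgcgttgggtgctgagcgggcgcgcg
Tpi1: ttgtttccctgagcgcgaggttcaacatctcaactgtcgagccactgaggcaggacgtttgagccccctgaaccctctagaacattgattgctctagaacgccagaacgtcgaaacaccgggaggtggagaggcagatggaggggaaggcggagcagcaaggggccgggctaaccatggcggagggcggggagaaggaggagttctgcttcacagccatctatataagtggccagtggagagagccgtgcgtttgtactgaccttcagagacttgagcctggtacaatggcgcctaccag
Slc16a3 holds 2 separate matches, Mif holds 1 after its start, Hif1a holds a palindrome that matches on both strands and another match, and these letters are not in the Tpi1 window. A match is a description of the letters and no binding was measured.

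Inflammatory cytokines and NF-kB targets formed the next group. NF-kB is the factor that microbial and cytokine receptors release to switch on inflammation and survival genes. Over 6 members 33 of 38 tested genes had a positive contrast, with a median of 0.41 against -0.01 for all genes, and 8 were called higher (all genes 1.25%) and none lower. Over 7 members 36 were positive with a median of 0.29, and 1 was called (all genes 0.224%). Over 6 members 20 of the 38 were called higher against Ly6Clo MHCIIhi and 4 against Ly6Chi MHCIIlo, beside 9.62% and 2.79% of all genes. Neutrophil markers, whose cells also carry many of these transcripts, made up 635 to 2255 CPM in the 6 members (18 of 20 markers in the table detected over all 7, Cxcr1 and Stfa2 at 0), against 6824 to 21242 CPM in Ly6Chi MHCIIlo and 465 to 2047 CPM in Ly6Clo MHCIIhi. Their part in these results was not tested.

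Nfkb2, the p100 subunit of NF-kB and itself a target, had 136, 232 and 328 CPM in the 6 members and 53.9 in ctrl replicate 1, against 139, 178 and 236 CPM in Ly6Chi MHCIIlo and 68.8, 123 and 191 CPM in Ly6Clo MHCIIhi. Of the 6, 5 exceeded every Ly6Clo MHCIIhi sample and 2 every Ly6Chi MHCIIlo sample (contrast 0.64, SE 0.16, adjusted p = 0.0273; 0.52 and adjusted p = 0.165 over 7). Traf1, an adaptor of TNF receptors, and Malt1, a protease on the way to NF-kB, which is not in the list, had contrasts of 0.63 and 0.71 (adjusted p = 0.03 and 0.0177), each with 5 or 6 members above both medians. Il1r2, the decoy receptor for interleukin 1, had 226, 426 and 589 CPM in the 6 and 287 in ctrl replicate 1, against 72.2, 116 and 189 CPM in Ly6Chi MHCIIlo and 239, 435 and 630.4 CPM in Ly6Clo MHCIIhi. It was called in both sets, at 0.92 over 6 (SE 0.18, adjusted p = 0.00518) and 0.85 over 7 (SE 0.17, adjusted p = 0.0143), and lay level with Ly6Clo MHCIIhi and apart from Ly6Chi MHCIIlo without overlap.

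Clec4e, the receptor Mincle for microbial glycolipids, and Plaur, the urokinase receptor, showed the opposite position. Clec4e had medians of 995 CPM in the 6 members, 1044 in Ly6Chi MHCIIlo and 243 in Ly6Clo MHCIIhi, and Plaur 798, 793 and 348 CPM in the same order. All 6 members exceeded every Ly6Clo MHCIIhi sample for both genes, while both medians lay within the Ly6Chi MHCIIlo range. Maff, a stress-responsive partner of other transcription factors, exceeded both medians in all 6 members (contrast 0.63, adjusted p = 0.016). The survival genes Bcl2a1a, Bcl2a1b and Bcl2a1d were called at 0.60, 0.59 and 0.81, but they are near-identical copies whose reads the counting could split, so which copy differed is uncertain. Il1b, interleukin 1 beta, was abundant and level with the monocytes, with medians of 8161, 7796 and 4042 CPM in the same order and a contrast that was not called (0.45, adjusted p = 0.266). Ptgs2 was not called either (0.41, adjusted p = 0.767).

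The kappaB motif, read on either strand as GGG, any 2 bases and then TTTCC, is in 1.63% of all promoter windows and in 9 of the 42 windows (21.4%) of 33 list genes in the table. These 9 windows belong to 6 genes, and 3 of them to Nfkb2. Here too the share over all windows includes genes not tested. The first Nfkb2 window (chr19:46304487-46304786, plus strand) is shown for its match, in capitals.
Nfkb2: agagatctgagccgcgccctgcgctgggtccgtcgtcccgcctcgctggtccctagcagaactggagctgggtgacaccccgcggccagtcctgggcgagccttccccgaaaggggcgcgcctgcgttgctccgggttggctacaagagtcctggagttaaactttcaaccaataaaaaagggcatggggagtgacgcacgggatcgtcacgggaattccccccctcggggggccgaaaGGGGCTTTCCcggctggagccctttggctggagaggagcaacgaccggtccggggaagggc
This motif lies just before the transcription start, and the other Nfkb2 windows, at later starts, overlap and hold the same single match.

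Secreted factors and matrix genes were also called higher over 6 members, and those named here were chosen after their values were seen. Timp1, an inhibitor of matrix proteases, had 596, 1087 and 1412 CPM in the 6 and 89.8 in ctrl replicate 1, against 423, 898 and 2365 CPM in Ly6Chi MHCIIlo and 70.5, 146 and 261 CPM in Ly6Clo MHCIIhi. It lay within the wide monocyte range and apart from Ly6Clo MHCIIhi without overlap in these 6, and passed in both sets (1.36, SE 0.23, adjusted p = 0.00208 over 6; 1.19, SE 0.27, adjusted p = 0.0361 over 7). Ccl24, a chemokine that draws eosinophils, had 1281, 2435 and 5088 CPM in the 6 members, against 342, 819.9 and 2935 CPM in Ly6Chi MHCIIlo and 290.2, 810.0 and 2688 CPM in Ly6Clo MHCIIhi. The 6 exceeded both medians, but only 2 of them exceeded every sample of either neighbour, and the contrast of 1.31 had an SE of 0.34 (adjusted p = 0.044; 1.10 and adjusted p = 0.179 over 7).

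Spp1, osteopontin, a secreted marker of tumour macrophages, had 848 CPM as the median of the 6, against 347 in Ly6Chi MHCIIlo and 587 in Ly6Clo MHCIIhi (contrast 0.90, adjusted p = 0.0116). In Ly6Clo MHCIIlo, outside the contrast, its median was 1524 CPM. Tgfbi, a matrix protein that TGF-beta raises, had medians of 3471, 2528 and 2113 CPM in the 6, Ly6Chi MHCIIlo and Ly6Clo MHCIIhi (contrast 0.50, adjusted p = 0.00441). Tgfb1, TGF-beta itself, and Thbs1, thrombospondin, which can activate it, exceeded every Ly6Clo MHCIIhi sample in all 6 and did not differ from Ly6Chi MHCIIlo at the threshold (contrasts 0.58 and 0.63, adjusted p = 0.0258 and 0.0116). Over 7 members Spp1, Tgfbi, Tgfb1 and Thbs1 had adjusted p of 0.0645, 0.437, 0.223 and 0.217. Of 21 tested tumour-associated macrophage genes, 5 were called higher over 6 members (all genes 1.25%) and 0 over 7 (all genes 0.224%).

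Surface proteins called higher over 6 members included Sdc1, a proteoglycan, with 288, 413 and 471 CPM, against 106, 275 and 393 CPM in Ly6Chi MHCIIlo and 64.3, 117 and 249 CPM in Ly6Clo MHCIIhi. All 6 exceeded every Ly6Clo MHCIIhi sample and 4 exceeded every Ly6Chi MHCIIlo sample (contrast 1.08, SE 0.21, adjusted p = 0.00518; 0.93 and adjusted p = 0.0643 over 7). Cd9, a tetraspanin, had medians of 533, 325 and 309 CPM in the 6, Ly6Chi MHCIIlo and Ly6Clo MHCIIhi, with all 6 above both medians (contrast 0.62, adjusted p = 0.00743). Cd80, which costimulates T cells, Cd276, of the same B7 family, and Pvr, a ligand of lymphocyte receptors, were low, with medians of 55.6, 31.6 and 116 CPM in the 6 and contrasts of 0.96, 1.10 and 0.65 (adjusted p = 0.04, 0.0494 and 0.044). Cd80 was the 1 called of 12 tested genes of costimulation and dendritic cell maturation, beside 1.25% of all genes called higher.

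Each of these 5 passed against 1 neighbour, Cd276 against Ly6Chi MHCIIlo and the others against Ly6Clo MHCIIhi. Clec4n, the fungal receptor Dectin-2, Fcgr2b, the inhibitory receptor for IgG, and Ramp3, a partner of the calcitonin receptor family, exceeded Ly6Chi MHCIIlo, with log2 folds of 1.59, 0.59 and 1.88 (adjusted p = 1.88e-11, 0.0014 and 6.29e-06). Tnfrsf1b, TNF receptor 2, exceeded Ly6Clo MHCIIhi by 1.19 on the log2 scale (adjusted p = 5.82e-09) and had 475 CPM in the 6, against 559 in Ly6Chi MHCIIlo. For T and NK cells, 5 marker genes were tested, all with a positive contrast, and none was called. Their list summed to 195 to 564 CPM in the 6 members, against 32.3 to 221 CPM in Ly6Chi MHCIIlo and 82.9 to 459 CPM in Ly6Clo MHCIIhi, and their part in the surface genes was not tested. Plasma cells carry Sdc1, and B and plasma cell markers were uneven. They summed to 86.6, 4609 and 14252 CPM as lowest, median and highest of the 6, against 72.9, 419 and 6376 CPM in Ly6Chi MHCIIlo and 70.5, 1670 and 30991 CPM in Ly6Clo MHCIIhi. Of 15 such markers in the table, 13 were detected in the 6 members, with Cd79a and Ighm at 0. The 3 that were tested all lay above both neighbours, with a median contrast of 2.28 over 6 members, and none was called. In ko replicates 3 and 4, the lowest of the 6 in these markers (109 and 86.6 CPM), Sdc1 had 398 and 463 CPM. The part of plasma cells in the Sdc1 result was not tested.

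Genes typical of monocytes mostly lay between the neighbours. Among 36 tested classical monocyte genes 31 lay between the neighbours over 6 members, beside 51.0% of all genes, and 7 were called higher (all genes 1.25%) and none lower. In the single differences 31 were called higher than in Ly6Clo MHCIIhi (all genes 9.62%) and 15 lower than in Ly6Chi MHCIIlo (all genes 3%). Plac8, an abundant monocyte gene, had 1759, 1958 and 5156 CPM in the 6 and 449 in ctrl replicate 1, against 2509, 3047 and 5069 CPM in Ly6Chi MHCIIlo and 159.6, 327 and 1253 CPM in Ly6Clo MHCIIhi. Its contrast was 1.2 (SE 0.29, adjusted p = 0.0387). Tgm2, a transglutaminase, and F10, coagulation factor X, followed at 0.87 and 0.78, again between the neighbours, as did Ifi27l2a, an interferon-induced gene outside this list, at 0.73. Ccr2, the chemokine receptor that brings monocytes into tissue, had 186, 284 and 85.1 CPM as medians and was not called (contrast 0.36, adjusted p = 0.319).

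Further genes called higher in both sets included Chst11, a sulfotransferase for chondroitin (1.08 over 6, 0.98 over 7), Uck2, a uridine-cytidine kinase (0.87 and 0.74), Ezr, which ties membrane to actin (0.54 and 0.54), and Atp2b4, a calcium pump (0.80 and 0.91). Chst11 and Uck2 exceeded every Ly6Clo MHCIIhi sample in all 6 members, with adjusted p of 0.000682 for both. Over 6 members alone, Srgn, the proteoglycan of secretory granules, had medians of 7324, 6689 and 2385 CPM in the 6, Ly6Chi MHCIIlo and Ly6Clo MHCIIhi, and Pim1, a survival kinase, 1287, 1172 and 613 CPM. Slc7a11, which imports cystine, Sgk1, a kinase, Got1, an aminotransferase, Lmnb1, of the nuclear lamina, and Rai14, an actin-associated protein, had contrasts of 0.64, 0.51, 0.52, 0.66 and 0.78. The contrasts of 12 more called genes were 0.39 to 0.86, among them Myl12a and Tmem185b, Adora2b, an adenosine receptor, and Prkcd, a kinase.

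Of the genes called lower, Cybb and Cd300a passed against each neighbour in both sets of members. Cybb, the catalytic subunit of the NADPH oxidase that makes superoxide (chromosome X, 9435252 to 9487771, minus strand, GRCm38), had 237, 283 and 354 CPM in the 6 members and 252 in ctrl replicate 1, against 317, 508 and 656 CPM in Ly6Chi MHCIIlo and 261, 388 and 578 CPM in Ly6Clo MHCIIhi. All 7 lay below the medians of both neighbours, although single neighbour samples reached as low. It was called in both sets, at -0.62 over 6 (SE 0.14, adjusted p = 0.0104) and -0.65 over 7 (SE 0.14, adjusted p = 0.0143), and it passed against each neighbour by itself, at -0.75 and -0.49 on the log2 scale over 6 (adjusted p = 0.00108 and 0.0093). Cd300a, an inhibitory receptor, behaved alike, with medians of 93.2, 141 and 163 CPM in the 6, Ly6Chi MHCIIlo and Ly6Clo MHCIIhi, all 6 below both medians (contrast -0.81, adjusted p = 0.0382; -0.88 and adjusted p = 0.0361 over 7).

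Adgre1, which encodes the macrophage antigen F4/80, had 25.6, 47.8 and 75.01 CPM in the 6 and 17.96 in ctrl replicate 1, against 30.7, 61.9 and 80.7 CPM in Ly6Chi MHCIIlo and 87.8, 158 and 213 CPM in Ly6Clo MHCIIhi. The 25.6 CPM, in ctrl replicate 3, and the 17.96 CPM in ctrl replicate 1 are 1 count each. Every member lay below every Ly6Clo MHCIIhi sample, and most lay within the monocyte range (contrast -1.03 over 6, SE 0.22, adjusted p = 0.00893; -1.08 and adjusted p = 0.0143 over 7). Mpeg1, a pore-forming protein of phagosomes, Ly86, a partner of an LPS receptor homologue, Man2b1, a lysosomal mannosidase, and Grn, the lysosomal protein progranulin, were called in both sets at -0.57, -0.65, -0.55 and -0.46 over 6. Of these, Grn lay level with Ly6Chi MHCIIlo (590.0 and 553 CPM) and apart from Ly6Clo MHCIIhi (1135 CPM). Among 28 tested lysosome genes 2, Man2b1 and Grn, were called lower in both sets and none higher. Of all genes, 0.351% were called lower over 6 members and 0.163% over 7. Of the 28, 1 had a positive contrast over 6 members and 0 over 7. Their medians were -0.23 and -0.28, against -0.01 and 0.00 for all genes. Over 6 members 21 lay between the neighbours (all genes 51.0%) and 20 were called lower than in Ly6Clo MHCIIhi (all genes 9.19%). Against Ly6Chi MHCIIlo 2 were called lower (all genes 3%) and 5 higher (all genes 2.79%). Of 28 mature macrophage genes, 25 lay between the neighbours over 6 members (all genes 51.0%). Adgre1 alone was called, as lower (all genes 0.351%).

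Elmo1, which acts in engulfment, had 20.9, 29.6 and 41.8 CPM in the 6 members, against 36.6, 63.9 and 76.04 CPM in Ly6Chi MHCIIlo and 18.6, 52.8 and 91.7 CPM in Ly6Clo MHCIIhi, with all 6 below both medians (contrast -0.89, SE 0.24, adjusted p = 0.044). March1, the ubiquitin ligase that removes MHC class II from the surface, had 0, 13.2 and 24.4 CPM in the 6 and 17.96 in ctrl replicate 1, against 16.2, 31.4 and 72.96 CPM in Ly6Chi MHCIIlo and 22.6, 44.8 and 74.6 CPM in Ly6Clo MHCIIhi. All 6 lay below both medians (contrast -1.32, SE 0.36, adjusted p = 0.0449), and at this level 1 count is 3.48 to 25.6 CPM, so the values rest on few counts. Khk, which phosphorylates fructose, and Idh1, which makes NADPH, had contrasts of -1.21 and -1.50 (adjusted p = 0.044 and 0.044) at medians of 17.05 and 15.7 CPM. Their values rest on few counts as well. Gdpd3, an enzyme of lysophospholipids, Nceh1, which splits cholesterol esters, Lpcat1, of phospholipid remodelling, Crebbp, a histone acetyltransferase, Birc6, an inhibitor of apoptosis, Cnpy2, of the endoplasmic reticulum, and Rnaseh2c, a subunit of RNase H2, lay between -1.24 and -0.51. Nrros, which restrains oxidant production, passed each difference by itself but not the contrast over 6 members (-0.51, adjusted p = 0.0552).

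Other lists had few calls or none, beside 1.6% of all genes called over 6 members and 0.388% over 7. Over 6 members 3 of 16 retinoid and TGF-beta pathway genes were called higher (Tgfb1, Tgfbi and Thbs1). So were 2 of 21 bacterial sensing genes (Clec4e and Clec4n) and 1 of 6 Fc receptor genes (Fcgr2b). None was called lower, and over 7 members these lists had no call. Interferon gamma targets had a median of 0.37 over 6 members and 0.28 over 7, with 0 of 21 called by edgeR. Oxidative phosphorylation genes had medians of 0.04 and 0.00, with 0 of 53 called, and ribosomal protein genes 0.04 and 0.13, with 0 of 53 called. Immediate early genes, which handling of cells can raise, had medians of -0.05 and -0.13, and Maff was the 1 called of 25. Heat shock chaperones had medians of -0.45 and -0.19, with 0 of 9 called, and 4 of them were lower than in Ly6Clo MHCIIhi over 6 members (all genes 9.19%). Cell cycle genes had medians of 0.02 and 0.23, with 0 of 12 called.

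The genotypes hold separate samples, so calls made in one could be read in the other. In ko samples alone 57 of 4958 genes were called (1.15%), 44 higher (0.887%) and 13 lower (0.262%). In ctrl samples without replicate 1, 55 of these 57 had the same sign, 43 of the 44 and 12 of the 13, beside 59.2% of all genes, with median contrasts of 0.47 and -0.38. With replicate 1 kept, 41 of 57 had the same sign, 29 of 44 and 12 of 13, beside 54.2% of all genes. In ctrl samples alone 1 of 5047 genes was called (0.0198%).

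**Figure D4:**
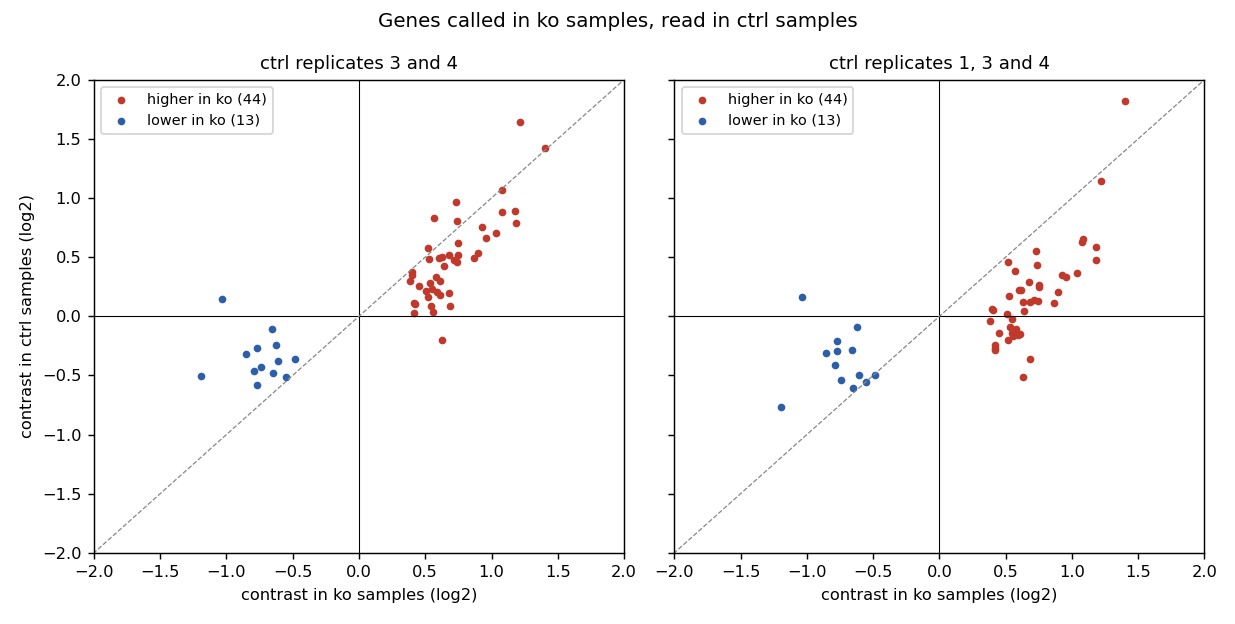
Contrast in ko samples (horizontal, log2) and in ctrl samples (vertical, log2) of the 57 genes called in ko samples, read in ctrl replicates 3 and 4 on the left and in ctrl replicates 1, 3 and 4 on the right, with a dashed line of equal values. Of 57 points, 55 share the sign on the left and 41 on the right.

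Whether the contrast itself differs between ko and ctrl was tested for all genes. In Ly6Chi MHCIIhi and Ly6Chi MHCIIlo, every ctrl library has 1 G or C base in its barcode and every ko library 3 to 5. Genotype and barcode GC content therefore cannot be told apart in these populations, while Ly6Clo MHCIIhi holds both kinds of barcode in each genotype. No gene passed in edgeR over 7 members, with 356 at an unadjusted p under 0.05, a smallest adjusted p of 0.0948, and 14 genes called by DESeq2. Leading were Znhit1, a subunit of a chromatin remodeller, Prdx2, a peroxidase abundant in red cells, and Hbb-bt. Prdx2 had 2174 CPM in ctrl replicate 1 and 187 to 384 CPM in the other 6. Without that replicate 0 genes passed, with 215 at an unadjusted p under 0.05 and a smallest adjusted p of 0.19. Leaving out ctrl replicate 4, so that ctrl replicates 1 and 3 alone stood for ctrl, gave 159 calls, and leaving out ctrl replicate 3 gave 8.

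Set between its neighbours as a whole, the double-high population was intermediate. Over all 7 members 2049 of 4902 genes (41.8%) differed between Ly6Clo MHCIIhi and Ly6Chi MHCIIlo, and in 1662 of them (81.1%) the Ly6Chi MHCIIhi level lay between both. Scaled so that Ly6Chi MHCIIlo is 0 and Ly6Clo MHCIIhi is 1, the median place was 0.425, with quartiles at 0.205 and 0.665, and 1203 genes lay nearer to Ly6Chi MHCIIlo and 846 nearer to Ly6Clo MHCIIhi. Without ctrl replicate 1 the median place was 0.413 over 2235 genes, 78.5% of them between. Genes higher in Ly6Clo MHCIIhi and genes lower there had median places of 0.423 and 0.426 over 7 members. These places are a description, since both neighbours enter them.

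**Figure D5:**
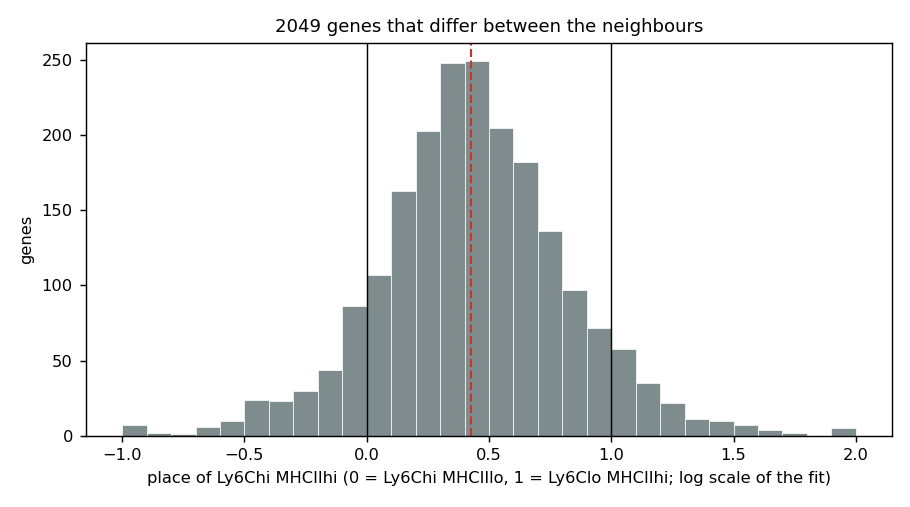
Number of genes (vertical) by the place of Ly6Chi MHCIIhi between Ly6Chi MHCIIlo at 0 and Ly6Clo MHCIIhi at 1 (horizontal, log scale of the model), for 2049 genes that differ between the neighbours over all 7 members, with values beyond the axis counted in the end bars. The peak lies between the solid lines at 0 and 1, and the dashed line marks the median of 0.425.

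The fourth population had no part in the contrast. Of the 64 genes called higher over 6 members, the median of these members exceeded the Ly6Clo MHCIIlo median in 58, and of the 18 called lower it did so in 1, beside 47.9% of all 5126 genes. The levels of the same 6 members chose these genes, so much of this follows from the choice. It is a description and no independent evidence. Among the exceptions was Mif, with 872 CPM in the 6 members and 1031 CPM in Ly6Clo MHCIIlo.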

How the data were processed

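Gene counts of 48 libraries from sorted colon tumour cells were used as deposited. Per the labels' protocols they are 3′ counts, and the submitters' processing notes name GRCm38, R 3.4.4 and DESeq2 1.18.1. No source used here names the aligner or counter. The table has 24538 rows, and 1 that names no gene (127 counts, 0.000967%) was left out. Libraries of the same population, genotype and replicate were summed. Counts were scaled by TMM, genes were kept by filterByExpr (minimum count 10, total 15), and the quasi-likelihood F test of edgeR 4.0.16 (R 4.3.3, limma 3.58.1) was fitted to the 3 populations with genotype as covariate, after being tested on simulated data. P-values were adjusted by Benjamini-Hochberg over all genes, with a threshold of 0.05. CPM values use the same scaling, and those of Ly6Clo MHCIIlo come from a fit scaled over all 4 populations. DESeq2 1.42.0, other filters, left-out samples and a replicate block were alternatives. The genes with the smallest p above or below both neighbours and the sort markers were named by rule. The other genes were chosen after their values were seen, and the members and lists were chosen with earlier results of these data known. A result on 1 called gene is not reported here.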

Additional observations from a re-analysis of the deposited data

Results flagged for a closer look

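Within the populations of the contrast and each genotype, the highest or lowest sample of a described gene was marked where its gap to the next sample, as a share of the range, passed the 95% critical value of Dixon. The Ly6Chi MHCIIhi ctrl group, with 3 samples, was too small for this rule and was not tested, so its replicate 1 could not be marked. This held for 55 of 455 groups tested, and chance marks about 1 in 20 groups. Levels are in CPM.

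In Ly6Chi MHCIIhi ko replicate 1, the lowest value of its group was found for Pim1 (1253, others 1321 to 1334) and Adgre1 (31.4, others 46.8 to 48.9). In Ly6Chi MHCIIhi ko replicate 2, the lowest value of its group was found for Sgk1 (516, others 632 to 651). In Ly6Chi MHCIIhi ko replicate 3, the highest value of its group was found for Hif1a (686, others 474 to 506). In Ly6Chi MHCIIhi ko replicate 3, the lowest value of its group was found for Chst11 (211, others 229.6 to 233). In Ly6Chi MHCIIhi ko replicate 4, the highest value of its group was found for Slc2a1 (579.6, others 328 to 352) and Tnfrsf1b (557, others 474 to 476).

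In Ly6Chi MHCIIlo ko replicate 1, the lowest value of its group was found for Znhit1 (157, others 169.9 to 171). In Ly6Chi MHCIIlo ko replicate 3, the highest value of its group was found for Bcl2a1d (107, others 57 to 65.3), Il1b (8779, others 7376 to 7515) and Sdc1 (393, others 310.4 to 316). In Ly6Chi MHCIIlo ko replicate 3, the lowest value of its group was found for Cd300a (93.3, others 136 to 140.3). In Ly6Chi MHCIIlo ko replicate 4, the highest value of its group was found for Rnaseh2c (186, others 145 to 148). In Ly6Chi MHCIIlo ctrl replicate 1, the highest value of its group was found for Hbb-bt (96.9, others 3.8 to 16.6), Hbb-bs (423, others 16.6 to 31.9), Hba-a1 (226, others 4.56 to 7.6) and Hba-a2 (168, others 0 to 19.9). In Ly6Chi MHCIIlo ctrl replicate 4, the highest value of its group was found for Ly6c2 (1658, others 912 to 1017) and Maff (213, others 145 to 155).

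In Ly6Clo MHCIIhi ko replicate 3, the highest value of its group was found for Itgam (547, others 364 to 449.7), Traf1 (998, others 367 to 636), Ptgs2 (869, others 201 to 494) and Areg (292, others 129 to 161). Also highest there: Ccl24 (2688, others 290.2 to 1262), Sdc1 (249, others 74.5 to 154), Pim1 (912, others 495 to 683) and Khk (52.2, others 12.1 to 29.9). Also highest there: Birc6 (82.9, others 40.4 to 53.8). In Ly6Clo MHCIIhi ko replicate 5, the highest value of its group was found for Ly6c2 (56.5, others 12.1 to 28.8) and Plac8 (729.9, others 208 to 445). In Ly6Clo MHCIIhi ko replicate 6, the highest value of its group was found for Pvr (161, others 46.8 to 92.2), Cd276 (91.7, others 16 to 33.8), Uck2 (229, others 95.9 to 129) and Cnpy2 (229, others 111 to 157). Also highest there: Hbb-bt (1835, others 60.8 to 375), Hbb-bs (5551, others 205 to 1444), Hba-a1 (3165, others 91.2 to 674) and Hba-a2 (2523, others 46.4 to 520.4). Also highest there: Rasa3 (68.8, others 36.4 to 51.5). In Ly6Clo MHCIIhi ko replicate 6, the lowest value of its group was found for Cd80 (0, others 19.9 to 33.8) and Mpeg1 (321, others 617 to 765). In Ly6Clo MHCIIhi ctrl replicate 3, the highest value of its group was found for Ly6c2 (85, others 5.89 to 37.3), Mif (1197, others 668 to 826), Tpi1 (538, others 236 to 367) and Ldha (1381, others 697 to 864). Also highest there: Slc2a1 (956, others 168 to 266), Clec4e (673, others 141 to 356), Il1b (12733, others 3895 to 5385) and Ptgs2 (3853, others 189 to 788). Also highest there: Tnfrsf1b (482, others 159.9 to 288), Atp2b4 (113.3, others 22.8 to 47.9), Srgn (5439, others 1663 to 2938) and Plac8 (1253, others 159.6 to 393). In Ly6Clo MHCIIhi ctrl replicate 4, the highest value of its group was found for Ccl17 (784, others 0 to 331) and Ramp3 (200.3, others 78.8 to 136). Ly6Clo MHCIIhi ko replicate 6 held 39872 counts.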

How the results depend on the processing

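Of the 7 Ly6Chi MHCIIhi samples, 2 hold under 100000 counts, and the ctrl side rests on 3 samples. One of the shallow samples is ctrl replicate 1, which is also rich in red cell markers. Whether depth limits the calls was not tested. The counts of called genes moved with most settings, in the order higher and lower for all 7 members: 58 and 34 with DESeq2, 64 and 18 without Ly6Chi MHCIIhi ctrl replicate 1, 7 and 5 from library 1 alone, 27 and 22 with each library as a sample and barcode GC as a term, 44 and 13 in ko samples, 1 and 0 in ctrl samples, 29 and 22 with all 4 populations in 1 model, 78 and 16 without ctrl replicates 1 and 3, and 76 and 16 without samples under 100000 counts. With no filter on low counts they were 109 and 42, and 28 genes then peaked and 1 dipped, 27 of these 29 with most Ly6Chi MHCIIhi counts in ctrl replicate 1. Size factors gave 14 and 8, and removing haemoglobin genes 10 and 8.

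Peaks stayed at 0 over 7 members under every left-out sample, and 1 (Bhlhe40) passed without ctrl replicates 1 and 3. Requiring each difference to pass by itself gave 8 above and 11 below over 7 members, and 12 and 10 over 6. Over 6 members DESeq2 called 44 lower genes and 1 peak, and no filter 46 lower genes and 1 peak (Igkv3-12). Leaving out 1 sample at a time gave 3 to 64 higher and 1 to 20 lower genes over 7 members, and 23 to 119 higher and 4 to 36 lower over 6, with 0 to 1 peaks and 0 dips. Over 6 members the calls were 23 and 6 without ko replicate 4, 28 and 4 without ko replicate 3, 31 and 6 without ko replicate 1, 42 and 10 without ko replicate 2, and 26 and 10 without ctrl replicate 4. Over 7 they were 6 and 4 without ctrl replicate 4 and 5 and 5 without ko replicate 4. The cause was not tested.

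The genotype difference of the contrast gave 14 genes with DESeq2, 13 with no filter, 5 with the replicate block and 0 to 159 with 1 sample left out. The Hbb-bt contrast, at up to 6.98 with 1 sample left out, reversed to -0.33 without ctrl replicate 1, -0.63 in ko samples, -0.28 without ctrl replicates 1 and 3 and -0.059 without samples under 100000 counts, and Tgfbi minus Ly6Clo MHCIIhi to -0.027 in ctrl samples. The replicate block gave 8 higher and 4 lower genes over 7 members and 56 and 17 over 6. Deviations of samples with the same number had correlations of 0.0651 to 0.235 between Ly6Chi MHCIIhi and Ly6Chi MHCIIlo. All 7 were positive, and 4 of 7 were over 0.1. Between Ly6Chi MHCIIhi and Ly6Clo MHCIIhi the correlations were -0.0908 to 0.0957. Between Ly6Chi MHCIIlo and Ly6Clo MHCIIhi they were -0.0052 to 0.300, with 1 of 8 over 0.1, for ctrl replicate 1. The main model has no term for the replicate number. Whether samples with the same number share an origin was not tested.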
